A study of Mus musculus with 135 samples.

Results

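The 9 myelin genes Mbp, Mog, Mag, Mobp, Cnp, Mal, Cldn11, Opalin and Ugt8a were taken by symbol from the cortex and hippocampus count tables of male Townes mice, 9 of the 55416 genes that each table lists. Each member was found once in both tables. In this knock-in strain the globin loci are human, with normal alleles in the controls (AA) and the sickle allele in the sickle cell mice (SS). AA and SS mice were left without stress or drug, or were given repeated social defeat (AA + RSD, SS + RSD), minocycline (AA + minocycline, SS + minocycline), or RSD with minocycline (AA + RSD + minocycline, SS + RSD + minocycline). In RSD an aggressive male was placed in the cage for 2 hours on 6 consecutive nights. Minocycline, a tetracycline antibiotic, was given in the drinking water at 90 mg/kg from the day before RSD. The age stated for the mice of the RSD experiment was 6 months, and the age of the minocycline cohort was not given in the sources used here. The human globin genes were thus shared by all groups, the controls included. The question was whether stress, genotype and minocycline changed the RNA levels of these genes.

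Myelin is the lipid-rich sheath that oligodendrocytes wrap around axons in the brain, where it speeds conduction and feeds the axon. Compaction of the sheath needs myelin basic protein (Mbp) on the cytoplasmic side of the membrane, with Mobp in the same cytoplasmic layers and Cnp keeping the uncompacted channels open. Mag lies on the inner face toward the axon, Mog on the outermost surface, and Cldn11 forms the tight junctions between the layers. Mal sorts membrane rafts and proteins to the sheath, Ugt8a makes the galactosylceramide of its lipids, and Opalin is a membrane protein of late oligodendrocytes.

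The bases upstream of the transcription start were read for the members because these genes varied together across the libraries (described further on). RefSeq promoter windows from 250 bases before to 50 bases after the start (GRCm38.p6) were searched for 8 members, and none was used for Mbp. The letters ACAAAG, of the SOX type, occurred on either strand in 4 of these 8 windows (Mag, Mobp, Cnp and Opalin), against 18.7% of 27025 genes with a window. The letters CTGGCAC, of the MYRF type, occurred in 3 of 8 (Mag, Cnp and Opalin), against 5% of all genes, and CTGGTAC occurred in 1 of 8 (Mog), against 2.22%. TATAAA occurred in 0 of 8 against 14.2%, and CAGCTG, an E-box, in 1 of 8 (Opalin) against 16.1%. The motifs searched do not overlap one another in these windows, and a match is a string of letters, not a measured binding site. The 250 bases before the RefSeq start of Mobp, Cnp, Mag and Mog are shown 5′ to 3′ on the gene's strand. The GRCm39 coordinates are from an exact match to that genome, and the capitals mark the SOX-type and MYRF-type letters or their reverse complements. These starts differ from those of the GENCODE gene spans given further on. The Mobp stretch lies wholly inside its gene span, and those of Cnp, Mag and Mog lie partly inside theirs. Mag had 3 windows, of which the first was used.
Mobp (chr9:119978558-119978807, plus strand): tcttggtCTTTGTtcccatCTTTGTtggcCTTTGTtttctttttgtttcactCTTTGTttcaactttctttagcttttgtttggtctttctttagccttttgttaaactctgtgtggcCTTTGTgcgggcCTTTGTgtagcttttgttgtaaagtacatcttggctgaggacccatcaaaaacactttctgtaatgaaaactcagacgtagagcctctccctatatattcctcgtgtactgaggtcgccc
Cnp (chr11:100465515-100465764, plus strand): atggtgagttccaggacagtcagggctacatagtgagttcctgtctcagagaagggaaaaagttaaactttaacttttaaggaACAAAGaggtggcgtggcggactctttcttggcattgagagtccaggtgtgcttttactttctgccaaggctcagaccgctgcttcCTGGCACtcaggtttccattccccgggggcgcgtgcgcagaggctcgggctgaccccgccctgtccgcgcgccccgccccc
Mag (chr7:30614289-30614538, minus strand): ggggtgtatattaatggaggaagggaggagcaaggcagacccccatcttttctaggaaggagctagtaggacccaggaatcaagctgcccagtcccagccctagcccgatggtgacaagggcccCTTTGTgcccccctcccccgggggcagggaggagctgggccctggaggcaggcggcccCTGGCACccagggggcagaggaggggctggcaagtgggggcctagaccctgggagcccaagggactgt
Mog (chr17:37334291-37334540, minus strand): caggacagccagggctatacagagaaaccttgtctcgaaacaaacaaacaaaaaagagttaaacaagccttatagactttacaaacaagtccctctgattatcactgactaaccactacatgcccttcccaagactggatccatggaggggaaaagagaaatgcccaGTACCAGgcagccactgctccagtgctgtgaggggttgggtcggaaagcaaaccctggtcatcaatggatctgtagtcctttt
Mobp held 6 ACAAAG matches, from 243 to 120 bases before the RefSeq start and so inside its GENCODE gene span. In Cnp the ACAAAG match began 167 and the CTGGCAC match 81 bases before the start, and in Mag they began 126 and 68 bases before it. The CTGGTAC match of Mog began 83 bases before the start.

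The tests used 65 cortex and 63 hippocampus libraries, with 16295042 to 107713193 reads on genes in cortex and 12869149 to 68731008 in hippocampus. Control mice numbered 12 AA and 8 SS in cortex, and 11 AA and 7 SS in hippocampus. The other groups held the same number in both tissues. RSD was given to 2 AA and 6 SS mice, RSD with minocycline to 18 AA and 14 SS mice, and minocycline alone to 1 AA and 4 SS mice. The single AA + minocycline mouse entered no comparison of its own. The libraries of mouse 9674 (AA + RSD) lay with the other tissue, at 114% and -2.49% of the way from cortex to hippocampus. They were left out with the libraries of mice 9887 and 9877, which held identical counts under different groups. On this scale the libraries kept lay at -6.45% to 45.6% in cortex and 53.2% to 124% in hippocampus. Expression of Alas2, a heme enzyme of red blood cells, put mice 5844 and 5853 (labelled AA) with the SS mice and mouse 7078 (labelled SS) with the AA mice, and mouse 9631 (AA) had 1944 and 1570 counts of the mouse globin gene Hbb-bs against at most 8 in the others. These 4 mice were kept under their labels, and results that they change are given without them. Mouse numbers fell into series A, B and C. RSD without minocycline was found only in series A, and minocycline with RSD only in series B and C. The share of reads outside annotated genes split the libraries into a low class (4.67% to 7.58%) and a high class (9.69% to 26.4%). In cortex 13 of 14 series A libraries were in the low class, against 13 of 43 of series B and 1 of 8 of series C. In hippocampus 13 of 13, 13 of 42 and 0 of 8 were.

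Mbp was the highest member in every library of both tissues when levels were set per exon length (CPM, read counts scaled to a common library size, per kb of exon merged over all transcripts). In cortex its mean level was 279.9 ± 75.3 CPM per kb (SD, n = 65), and in hippocampus 290.1 ± 88.1 (SD, n = 63). Mobp followed at 87.3 ± 22.9 CPM per kb in cortex, then Mal at 80.2 ± 18.7 and Cnp at 78.2 ± 19.2. These neighbours were not separated in every library: Mobp exceeded Mal in 46 of 65 cortex and 53 of 63 hippocampus libraries, and Mal exceeded Cnp in 42 of 65 and 29 of 63. Cnp exceeded Cldn11 (43.5 ± 10.3 CPM per kb in cortex) in all 65 and all 63 libraries. Mag at 35.5 ± 8.5 and Mog at 24.1 ± 5.88 CPM per kb came next in cortex, and Mag exceeded Mog in 64 of 65 cortex libraries. The lowest members were Opalin at 4.65 ± 1.64 CPM per kb and Ugt8a at 3.48 ± 0.879 in cortex, and Opalin exceeded Ugt8a in 50 of 65 libraries. Mbp alone gave a median of 60.9% of the 9 genes' CPM in cortex and 61.4% in hippocampus. Opalin varied most among the members, with an SD over libraries of 0.51 on the log2 CPM scale in cortex and 0.52 in hippocampus, against 0.33 to 0.45 for the other 8 over both tissues. Every member had at least 293 counts in every library, so counting error was small beside the spread between mice.

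**Figure D1:**
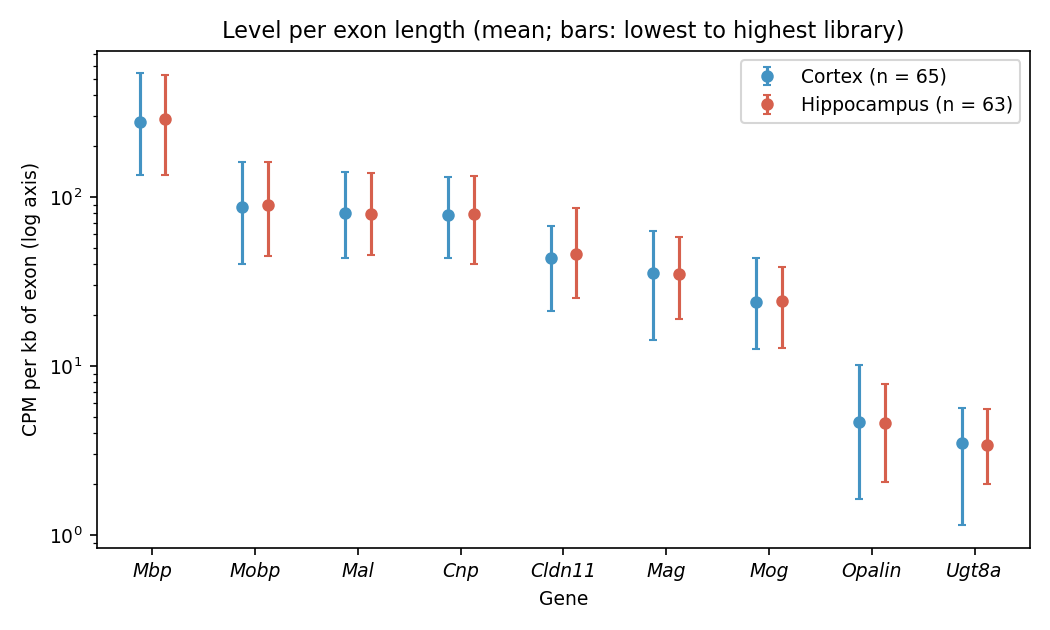
CPM per kb of exon (log axis) for each member gene in 65 cortex and 63 hippocampus libraries, as the mean (points) with the lowest and highest library (bars). Mbp stood highest, Mobp, Mal and Cnp lay close together, and Opalin and Ugt8a were lowest in both tissues.

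Mog shares 64.6% of its exon bases with Zfp57 on the other strand in GRCm39 (GENCODE vM39), Cnp 16.5% with Dnajc7, and no other member more than 8.25%. Zfp57 was counted at 2.36 to 12.8 CPM over both tissues, below Mog in level. The libraries were directional, but the strand setting of the counting was not given in the sources used here, so reads of Mog and Zfp57 cannot be told apart with certainty. The members lie on 8 chromosomes, with Cldn11 (chr3:31203900-31218495) and Ugt8a (chr3:125654459-125732736) on the same one. The others are Mobp (chr9:119973770-120011273), Cnp (chr11:100465730-100482936), Mag (chr7:30598464-30614474), Mal (chr2:127475142-127498615), Mog (chr17:37321521-37334350), Opalin (chr19:41045254-41065553) and Mbp (chr18:82493207-82603763).

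No member passed the test between cortex and hippocampus in control mice. In AA, 0 of 9 members passed an adjusted p of 0.05 (edgeR quasi-likelihood test, Benjamini-Hochberg), 0 at an unadjusted p under 0.05 and 0 by DESeq2, while 36.6% of all genes tested were called. In SS the counts were the same, and 30.6% of all genes were called. The members' log2 fold changes ran from -0.12 to -0.02 in AA and from -0.10 to 0.08 in SS. The largest difference in AA was that of Mal, with a log2 fold change of -0.12 (95% CI -0.44 to 0.19), and in SS that of Ugt8a, at -0.10 (95% CI -0.45 to 0.24). Other genes of the lineage did differ: 5 of 9 genes of oligodendrocyte precursors were higher in the hippocampus of AA mice and 4 of 9 in SS. Of all 19255 genes tested, 3557 were called higher in hippocampus in AA and 2908 in SS. C1ql1, a secreted C1q-like protein, was higher by 0.70 and 0.78 on the log2 scale. Neu4, a sialidase, was higher by 0.58 (adjusted p = 3.09e-08) in AA and 0.65 (adjusted p = 4.38e-07) in SS on the log2 scale in edgeR. Gpr17, a receptor of committed precursors, was higher by 0.34 (adjusted p = 0.00396) and 0.44 (adjusted p = 0.00368). Of 13 further myelin genes 1, Omg, a glycoprotein that limits axon growth, differed, with a log2 fold change of -0.35 in AA and -0.36 in SS. The same mouse gave both tissues. With the mouse as a block (11 AA and 7 SS mice), 0 members were called in either genotype, and the medians of the 9 log2 fold changes were -0.10 in AA and 0.02 in SS. The direction turned with number series: the AA median was 0.18 within series A and -0.14 within series B, and the SS median 0.28 and -0.16. In high-class AA libraries 1 member, Mal, was called lower in hippocampus, at -0.27, where 17.4% of all genes were called lower.

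The level in each library, as the mean log2 CPM of the 9 genes, overlapped between all groups with 2 or more libraries in both tissues. Its group medians ran from 7.09 in SS to 7.63 in SS + minocycline in cortex, and from 6.97 in SS to 7.66 in SS + RSD in hippocampus. In bulk tissue, fewer oligodendrocytes and less myelin RNA per oligodendrocyte cannot be told apart. In low-class libraries the median of this mean was 7.60 in cortex and 7.76 in hippocampus, and in high-class libraries 7.33 and 7.32. The lowest cortex library of each class was at 6.46. These were SS + RSD + minocycline mice 9813 (high class) and 5801 (low class), at 40.2% and 45.6% of the way from cortex to hippocampus. Cortex libraries of mice 5646 (42.4%), 9890 (39.3%) and 9621 (34.9%) had means of 6.65, 7.08 and 6.99. The cortex library of SS mouse 9824, at -5.39% on this scale, had 6.80. The part of tissue position in the myelin values was not tested.

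**Figure D2:**
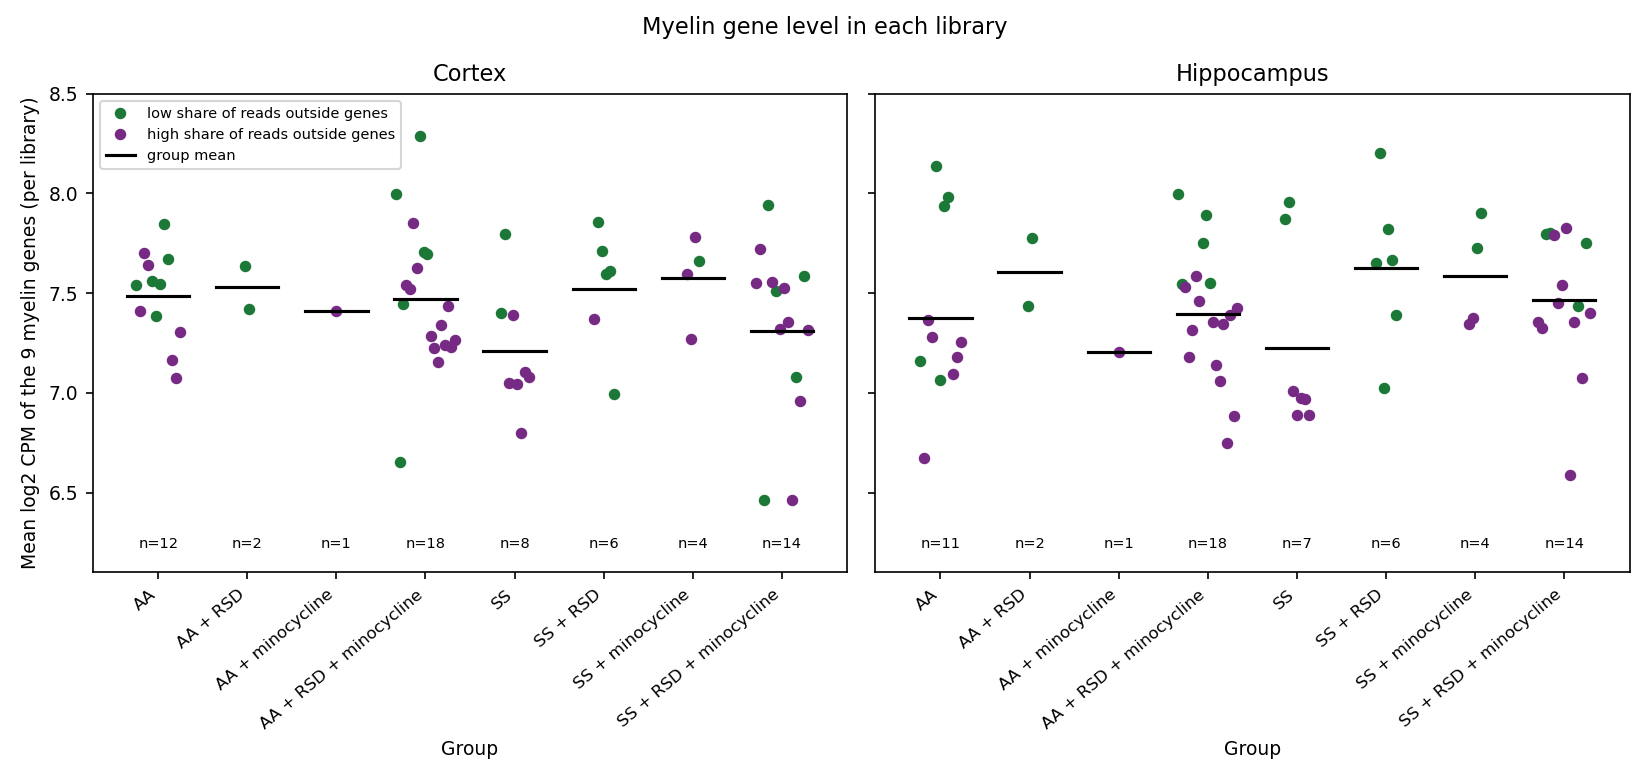
Mean log2 CPM of the 9 myelin genes in each library (points) by group, with the group mean (bars), in cortex (left) and hippocampus (right). Colour gives the class of the share of reads outside genes: in SS hippocampus the 2 low-class libraries sit above the 5 high-class ones.

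SS + RSD mice had higher average levels of all 9 members than SS mice in both tissues, but no member passed the test. In cortex, Cnp ran from 200.1 through a median of 233.2 to 429.0 CPM in 8 SS mice, and from 284.5 through 383.9 to 439.5 CPM in 6 SS + RSD mice. The groups overlapped, with the higher SS mice reaching the level of the stressed ones. The log2 fold change of Cnp was 0.51 (SE 0.18, 95% CI 0.14 to 0.87, adjusted p = 0.0861 in edgeR). Mbp ran from 1791 through 1971 to 3458 CPM in SS and from 1726 through 3239 to 3797 CPM in SS + RSD, with a log2 fold change of 0.42 (SE 0.21, adjusted p = 0.181). The 9 log2 fold changes ran from 0.17 to 0.51 with a median of 0.36, against 0.08 over all genes. In cortex 0 of 9 were called (3 at an unadjusted p under 0.05 and 0 by DESeq2), where 2.57% of all genes were. Unadjusted, 27.7% of all genes passed. In hippocampus the members ran from 0.25 to 0.48 with a median of 0.45, against 0.06 over all genes. Again 0 of 9 were called (3 unadjusted, 0 by DESeq2), with 3.11% of all hippocampus genes called and 19.6% passing unadjusted. The largest change there was that of Ugt8a, which ran from 22.6 through 28.6 to 40.2 CPM in 7 SS mice and from 21.4 through 38.6 to 59.3 CPM in 6 SS + RSD mice, with a log2 fold change of 0.48 (SE 0.19, 95% CI 0.09 to 0.87, adjusted p = 0.147). The ranges of these genes overlapped between the groups in both tissues.

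The difference between SS + RSD and SS was not seen within series A, which held all 6 SS + RSD mice and 2 of the SS mice. The 2 series A SS mice had 322.6 and 429.0 CPM of Cnp in cortex, within the range of the SS + RSD mice, while the 6 series B SS mice had 200.1 to 284.3 CPM. In hippocampus the 2 series A SS mice had 3888 and 4077 CPM of Mbp against 2276 to 5042 in SS + RSD, and the 5 series B SS mice had 1738 to 1972 CPM. Within series A the median log2 fold change of the 9 members was -0.05 in cortex and -0.20 in hippocampus, and 8 of 9 lay below 0 in each. The largest was that of Opalin, at -0.26 (95% CI -0.89 to 0.37) in cortex and -0.57 (95% CI -1.14 to 0.01) in hippocampus, neither called. With number series as a term over all mice the medians were -0.04 and -0.23, and with the share of reads outside genes as a term 0.21 and 0.05. Low-class libraries made up 5 of 6 SS + RSD and 2 of 8 SS libraries in cortex, and 6 of 6 and 2 of 7 in hippocampus. Summed markers of other cells differed between the groups: the 5 microglia markers had a median sum of 276 CPM (235 to 343) in SS + RSD cortex and 191 CPM (167 to 286) in SS cortex. The 5 astrocyte markers had medians of 1220 CPM (1120 to 1630) and 931 CPM (823 to 1160). These sums also differed by series: the 2 series A SS mice had 239 and 286 CPM for microglia and 1082 and 1164 CPM for astrocytes. The 6 series B SS mice had 167 to 197 CPM and 823 to 964 CPM. The 6 striatal markers reached 1340 CPM in 1 SS + RSD cortex library, of mouse 9621, with group medians of 230.0 CPM in SS + RSD and 257 CPM in SS, and none of these 3 lists had a called gene. Their part in the myelin values was not tested.

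**Figure D3:**
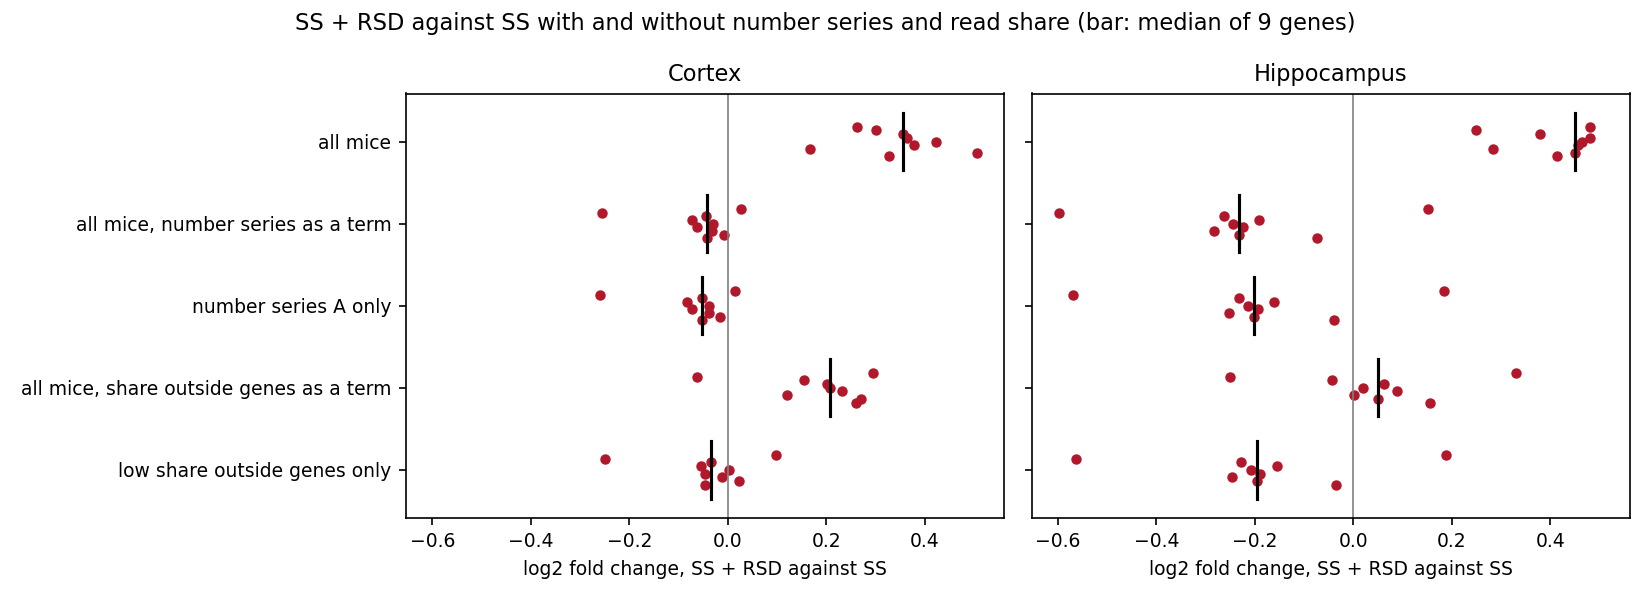
log2 fold change of each of the 9 myelin genes (points) and their median (bars) for SS + RSD against SS in cortex (left) and hippocampus (right), over all mice, with number series or share of reads outside genes as a term, in series A alone and in low-class libraries alone. The medians of 0.36 and 0.45 over all mice went to -0.05 and -0.20 within series A.

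Of 48 genes in 5 related lists (13 further myelin proteins, 8 genes of myelin lipids, 9 oligodendrocyte transcription factors, 9 precursor genes and 9 genes of the node of Ranvier), 0 were called for SS + RSD against SS in either tissue by edgeR, 5 in cortex and 8 in hippocampus at an unadjusted p under 0.05. That threshold was passed by 27.7% of all genes in cortex and 19.6% in hippocampus, a larger share than in these lists. In cortex the lists' median log2 fold changes were 0.29 for the further myelin proteins, 0.32 for precursor genes, 0.14 for transcription factors, 0.10 for myelin lipids and -0.11 for the node, against 0.08 over all genes. In hippocampus they were 0.36, 0.20, 0.19, 0.20 and 0.15 in the same order, against 0.06 over all genes. Over the 20 tests of stress, drug and genotype in the 2 tissues, 1 of these 48 genes was called once. It was Pdgfra, the growth factor receptor of precursors, which was lower in hippocampus of SS + RSD + minocycline than of SS + RSD mice. Its log2 fold change was -0.32 (adjusted p = 0.0387 in edgeR), where 5.96% of all genes were called. No number series held both groups, so series and treatment cannot be told apart. Low-class libraries were 6 of 6 in SS + RSD and 4 of 14 in SS + RSD + minocycline.

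In AA mice RSD had 2 usable libraries per tissue, and 0 of 9 members were called in either tissue (0 unadjusted, 0 by DESeq2), with 0% of all genes called in cortex and 0.0419% in hippocampus. The cortex values of Mbp in AA + RSD were 2588 and 2925 CPM, inside the AA range of 2091 to 3905 CPM. Opalin showed the largest change in both tissues. Its hippocampus values were 29.2 and 42.5 CPM in AA + RSD, and it ran from 12.9 through 23.2 to 45.5 CPM in 11 AA mice, with a log2 fold change of 0.51 (95% CI -0.24 to 1.25). The 9 log2 fold changes ran from -0.19 to 0.26 in cortex and from -0.13 to 0.51 in hippocampus. Their median was -0.00 in cortex and 0.18 in hippocampus, and within series A 0.02 and -0.13. The interaction of genotype and RSD, which asks whether the stress difference itself differed between SS and AA, called 0 of 9 members in both tissues (0 unadjusted, 0 by DESeq2), with 0% and 0.0128% of all genes called. The members ran from -0.02 to 0.52 in cortex and from -0.28 to 0.59 in hippocampus, and the largest was Mobp, at 0.52 (95% CI -0.22 to 1.27) in cortex and 0.59 (95% CI -0.26 to 1.44) in hippocampus.

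Minocycline with RSD was set against RSD alone in both genotypes. In SS + RSD + minocycline all 9 members averaged below SS + RSD in both tissues, with log2 fold changes of -0.42 to -0.03 in cortex (median -0.20) and -0.34 to -0.07 in hippocampus (median -0.16). Cnp changed most. In cortex it ran from 175.5 through 287.4 to 418.0 CPM in 14 treated mice, against 284.5 through 383.9 to 439.5 CPM in 6 SS + RSD mice, with a log2 fold change of -0.42 (SE 0.16, 95% CI -0.75 to -0.10, adjusted p = 0.0887 in edgeR). In hippocampus its log2 fold change was -0.34 (95% CI -0.72 to 0.04). No member was called in either tissue (1 and 0 unadjusted, 0 by DESeq2), while 8.85% of all genes were called in cortex and 5.96% in hippocampus. Markers of other cells moved with the comparison in cortex: the median sum in SS + RSD + minocycline against SS + RSD was 207 against 276 CPM for microglia (1 of 5 called lower), 966 against 1220 CPM for astrocytes (2 of 5) and 163 against 219 CPM for endothelium (2 of 4). In hippocampus the sums were 212 against 291, 1290 against 1670 and 159 against 208 CPM, with 0 of 5, 1 of 5 and 1 of 4 called lower. Their part in the myelin values was not tested. No series held both groups, so number series and treatment cannot be told apart. With the share of reads outside genes as a term, the SS medians were -0.02 in cortex and 0.25 in hippocampus, where all 9 members then lay above 0. In AA + RSD + minocycline against AA + RSD, 0 of 9 were called (0 unadjusted, 0 by DESeq2), with 0% of all genes in cortex and 0.0419% in hippocampus, with log2 fold changes from -0.25 (Cldn11) to 0.20 in cortex and from -0.27 (Mal) to 0.09 in hippocampus.

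Minocycline without stress went with higher average levels of all 9 members in SS mice, also without a call. The 4 SS + minocycline cortex libraries had 2277, 2624, 3756 and 3778 CPM of Mbp, against 1791 through 1971 to 3458 CPM in 8 SS mice. The 2 lower values came from series C mice and the 2 higher ones from series B mice. The hippocampus showed the same order, with 2354 and 2492 CPM of Mbp in series C and 3946 and 4018 CPM in series B. Over all mice the 9 log2 fold changes ran from 0.11 to 0.55 in cortex (median 0.42) and from 0.20 to 0.47 in hippocampus (median 0.39), with 0 of 9 called (2 and 1 unadjusted, 0 by DESeq2) and 0% of all genes called in both tissues. The largest were Opalin at 0.55 (95% CI -0.11 to 1.22) in cortex and Ugt8a at 0.47 (95% CI 0.03 to 0.90) in hippocampus. Within series B, with 2 SS + minocycline and 6 SS cortex libraries, 4 of 9 were called higher, where 15.1% of all genes were, among them Mbp at 0.95 (adjusted p = 0.0214 in edgeR) and Cnp at 0.92 (adjusted p = 0.01). All 6 of these SS libraries were high-class, and the SS + minocycline libraries were 1 of each class. In the hippocampus of series B, with 2 and 5 libraries, 0 were called and the median was 0.99. There both SS + minocycline libraries were low-class and all 5 SS libraries high-class, so drug and read share cannot be told apart. In low-class hippocampus libraries, 2 in each group, the median was -0.04. Ugt8a did not follow this order: its cortex values were 59.6 and 46.3 CPM in the 2 series C mice and 38.3 and 18.8 CPM in the 2 series B mice.

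Among SS mice given minocycline, the members' log2 fold changes for RSD ran from -0.36 to -0.02 in cortex (median -0.29) and from -0.26 to -0.01 in hippocampus (median -0.17). In hippocampus the mean CPM of Cldn11 and Mobp was slightly higher with RSD, at 116.3 against 114.7 and at 875.8 against 859.8 CPM. No member was called in either tissue (0 unadjusted, 0 by DESeq2), with 0% of all genes called. Cnp was again the largest, at -0.36 (95% CI -0.74 to 0.02) in cortex and -0.26 (95% CI -0.70 to 0.18) in hippocampus. With the share of reads outside genes as a term the hippocampus median was 0.12. Within series B cortex, with 2 SS + minocycline libraries, Cnp alone was called, at -0.67, where 12.7% of all genes were called lower. The SS, SS + RSD and SS + RSD + minocycline libraries enter several of these comparisons, so the comparisons are not independent of each other.

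Genotype made no called difference in the members under any condition. SS mice averaged below AA mice in all 9 members in cortex and in 8 of 9 in hippocampus, with log2 fold changes of -0.35 to -0.15 (median -0.31) and of -0.31 to 0.02 (median -0.15). Ugt8a differed most. It ran from 16.7 through 32.8 to 37.4 CPM in 8 SS and from 29.03 through 36.4 to 50.8 CPM in 12 AA cortex libraries, with a log2 fold change of -0.35 (SE 0.17, adjusted p = 0.678 in edgeR), and in hippocampus it was -0.31 (95% CI -0.66 to 0.04). No member was called (3 and 0 unadjusted, 0 by DESeq2), with 0.206% of all genes called in cortex and 0.158% in hippocampus. Without the 4 mice whose Alas2 or Hbb-bs went against the label, the medians were -0.28 and -0.08. Within series A the medians were 0.01 and 0.10, and within series B -0.39 and -0.35. Low-class libraries made up 2 of 8 SS and 6 of 12 AA libraries in cortex, and 2 of 7 and 5 of 11 in hippocampus. Among series B controls only those of AA mice 9836 and 5844 were low-class, so the genotypes were not balanced for read share. For SS + RSD against AA + RSD 0 of 9 were called (0 unadjusted, 0 by DESeq2), with 0% and 0.0171% of all genes called, with log2 fold changes from -0.38 (Ugt8a) to 0.21 in cortex and from -0.26 to 0.39 (Mobp) in hippocampus. For SS + RSD + minocycline against AA + RSD + minocycline 0 of 9 were called (1 and 0 unadjusted, 0 by DESeq2), with 0.599% and 2.73%. The members ran from -0.33 to -0.02 in cortex and from -0.08 to 0.19 in hippocampus. Ugt8a was lowest in cortex, at -0.33 (95% CI -0.60 to -0.06), and Mobp was furthest from 0 in hippocampus, at 0.19 (95% CI -0.13 to 0.50). In that cortex comparison 5 of 6 striatal markers were higher in the SS group, and 2 of its libraries, of mice 9813 and 9890, had over 600 CPM of them; the part of tissue outside the cortex in the myelin values was not tested.

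**Figure D4:**
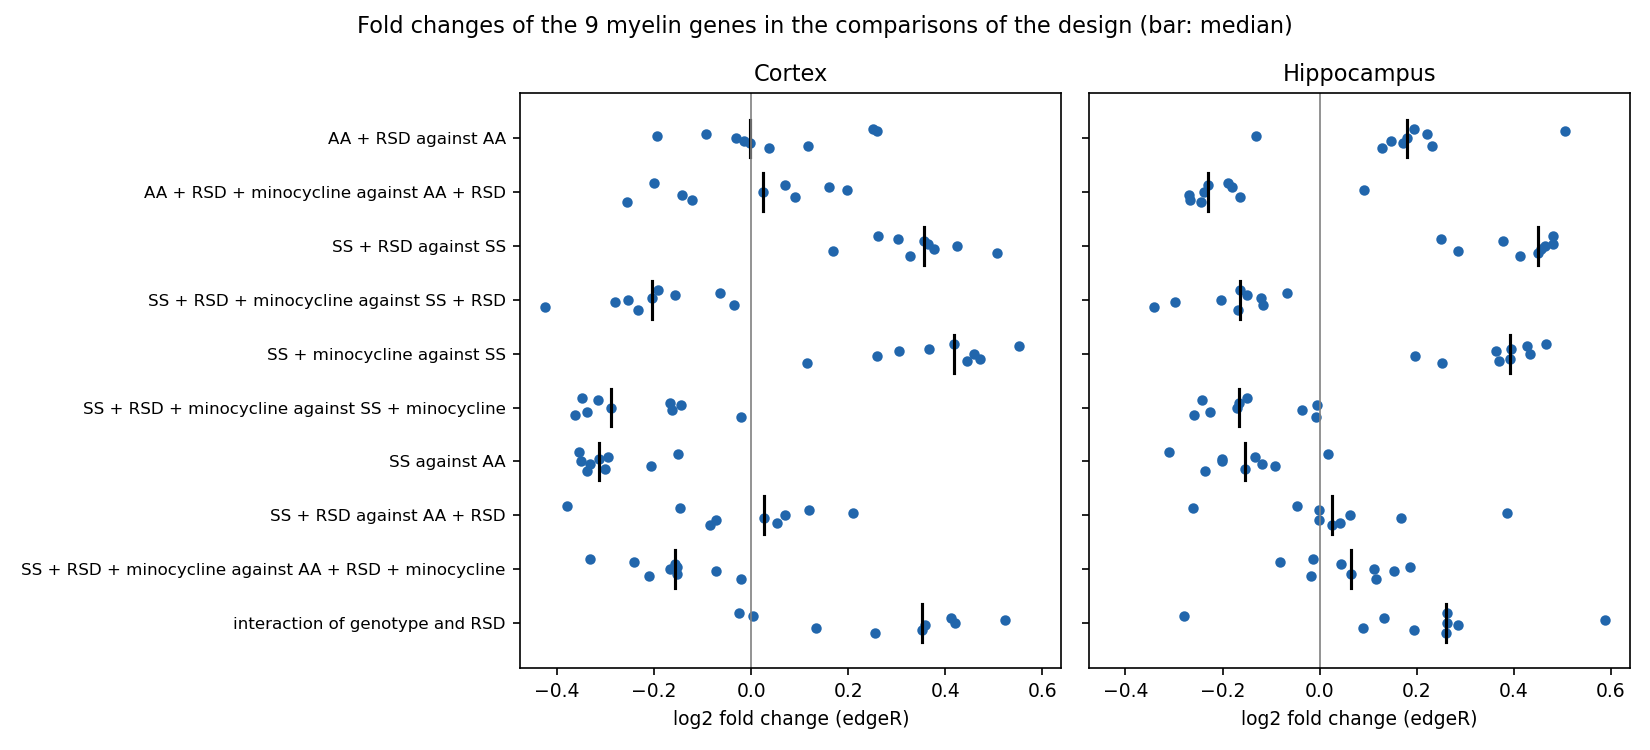
log2 fold change (edgeR) of each of the 9 myelin genes (points) with their median (bars) in the 10 comparisons of stress, drug and genotype, in cortex (left) and hippocampus (right). The points lie to the right of 0 for SS + RSD and SS + minocycline against SS and to the left for SS against AA in cortex, and none passed the adjusted test.

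The members differed between number series in control mice, with genotype as a term. In hippocampus 8 of 9 were lower in series B than in series A, where 45% of all genes were called and 23.8% were called lower. Opalin ran from 15.2 through 45.2 to 47.6 CPM in 5 series A mice and from 12.9 through 18.3 to 35.5 CPM in 13 series B mice, with a log2 fold change of -0.97 (SE 0.21, adjusted p = 0.00156 in edgeR). Mbp ran from 2209 through 3969 to 5110 CPM in series A and from 1606 through 2138 to 3963 CPM in series B, with a log2 fold change of -0.82 (SE 0.17, adjusted p = 0.000962). The series overlapped for both genes. The other called members were Cnp (-0.78), Mal (-0.75), Mog (-0.69), Mobp (-0.66), Mag (-0.63) and Cldn11 (-0.46), and Ugt8a at -0.34 (adjusted p = 0.0939) was not called. In cortex 3 of 9 were lower in series B, Cnp at -0.37 (adjusted p = 0.00779), Mal at -0.36 (adjusted p = 0.00359) and Mbp at -0.36 (adjusted p = 0.00909) on the log2 scale, where 43.2% of all genes were called and 19.4% were called lower. With the share of reads outside genes as a term 0 members were called in either tissue. All series A control libraries were low-class, and of the series B controls only those of mice 9836 and 5844 were. Series and share thus largely coincided, and this fit cannot tell their parts apart. Without the 4 mice named above 5 members were called lower in cortex and 7 in hippocampus, against 21.2% and 22% of all genes.

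Levels also moved with the share of reads outside genes. With group as a term, 9 of 9 members were higher in low-class than in high-class hippocampus libraries, where 66.6% of all genes were called in either direction and 28.4% as higher. In cortex 6 of 9 were higher, where 55.4% of all genes were called in either direction and 29.9% as higher. In hippocampus Opalin had a mean of 36.9 ± 9.43 CPM (SD, n = 26) in the low and 23.6 ± 6.59 CPM (SD, n = 37) in the high class, a log2 fold change of 0.79 (adjusted p = 3.75e-09 in edgeR). For Mbp the means were 3503 ± 767 and 2352 ± 546 CPM, and the difference was 0.63 on the log2 scale (adjusted p = 4.02e-08). Mal, Mobp, Cnp and Mog were higher by 0.58 to 0.62, and Cldn11, Mag and Ugt8a by 0.23 to 0.31. In cortex the called members were Opalin (0.48), Cnp (0.40), Mbp (0.39), Mog (0.31), Mobp (0.31) and Mal (0.29), while Cldn11, Mag and Ugt8a lay between 0.03 and 0.12 and were not called. The members lay above the median of all genes, which was 0.03 in cortex and -0.08 in hippocampus. With number series as a term 4 members were called higher in cortex, against 28.2% of all genes, and 7 in hippocampus, against 24.3%. Within series B 1 was called in cortex, against 26.6% of all genes, and 7 in hippocampus, against 25.9%.

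**Figure D5:**
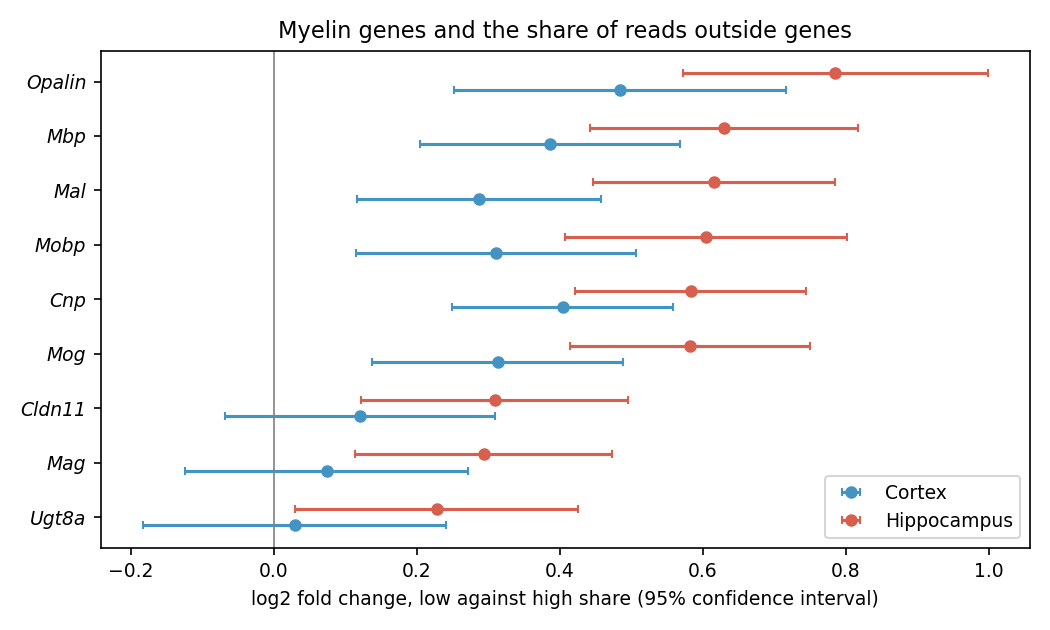
log2 fold change of each myelin gene between libraries with a low and a high share of reads outside genes, with 95% confidence intervals, in cortex (27 low, 38 high) and hippocampus (26 low, 37 high). Opalin lies furthest right in both tissues and Ugt8a furthest left.

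Other lists did not all differ the same way between the 2 classes, where 55.4% of all genes were called in cortex and 66.6% in hippocampus. Of the further myelin proteins, 11 of 13 were higher and 1 lower in low-class hippocampus libraries, and 8 and 2 in cortex. Cd9, a tetraspanin, was higher by 0.71 (adjusted p = 5.1e-12 in edgeR) in hippocampus and 0.52 in cortex, and Hapln2, a link protein of the node, was lower by a log2 fold change of -0.47 in cortex. Of the oligodendrocyte transcription factors 5 of 9 were higher in each tissue, with 1 lower in cortex and 3 in hippocampus, so that the share of the list called in either direction was near that of all genes in cortex. The higher ones were led by Nkx6-2 at 0.70 and 0.49 and Olig1 at 0.54 and 0.43 in hippocampus and cortex, whereas Myrf, the regulator of myelin gene transcription (named here after its values were seen), was lower, at -0.21 (adjusted p = 0.0403) and -0.28 (adjusted p = 0.00927). Genes of the node went the other way: 7 of 9 were lower in hippocampus and 6 of 9 in cortex, among them Nfasc, an adhesion protein, at -0.44 and -0.42, and Scn8a, a sodium channel, at -0.43 and -0.33. All 5 microglia and all 5 astrocyte markers were higher in low-class libraries of both tissues. The summed microglia markers were at a median of 306 CPM (237 to 440) in the low and 197 CPM (176 to 343) in the high class of hippocampus.

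The members varied together across libraries. The correlation of each with the mean of the 9 (standardised log2 CPM, which includes the member itself) ran from 0.67 for Ugt8a to 0.96 for Mbp over 65 cortex libraries, and from 0.72 for Ugt8a to 0.97 for Mog over 63 hippocampus libraries. These values are descriptions over libraries that share groups, number series and read share. Within the low and high classes Ugt8a stayed lowest, at 0.74 and 0.65 in cortex. The 8 other genes most like the members in cortex were Gjb1 (r = 0.92), Prr18 (0.91), Trf (0.89), Bcas1 (0.88), Arsg (0.88), Tmem88b (0.87), Tmem125 (0.86) and the septin gene ENSMUSG00000020486 (0.86). In hippocampus they were Prr18 (0.96), Lpar1 (0.94), Bcas1 (0.94), Gpr37 (0.93), Plekhb1 (0.93), S1pr5 (0.92), Ermn (0.92) and Gjb1 (0.92). Gjb1 encodes a gap junction protein of oligodendrocytes, Trf transferrin, and Ermn a cytoskeletal protein of the sheath. Gjb1, Prr18 and Bcas1 were in both lists.

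Mice with high levels in cortex tended to have high levels in hippocampus. Because libraries fell into classes of read share, this was tested within the 35 mice with both libraries in the high class and the 24 with both in the low class, for 18 relations in all. In the high class Pearson's r of log2 CPM between the tissues was 0.55 for Opalin (permutation p = 0.00066, adjusted p = 0.00855), with Spearman's rho at 0.64 (permutation p = 3e-05, adjusted p = 0.00036), and r was 0.64 without the 2 mice farthest from the cortex median. For Mbp r was 0.46 (permutation p = 0.00585, adjusted p = 0.0211) and rho 0.59 (permutation p = 0.00032, adjusted p = 0.00115). All 9 members had r of 0.36 to 0.55 in this class. By r 8 passed an adjusted p of 0.05, Cldn11 being the exception (r = 0.36, permutation p = 0.0367, adjusted p = 0.0661). By Spearman's rho Cldn11 passed too (rho = 0.55, permutation p = 0.00064, adjusted p = 0.00192). In the low class r ran from 0.14 for Mobp to 0.49 for Opalin, and Opalin alone passed (permutation p = 0.0157, adjusted p = 0.0315). The mice of a class came from several groups and series, whose part in these correlations was not tested.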

How the data were processed

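RNA of cortex and hippocampus was sequenced as directional poly(A) libraries with single reads of 85 bases. Per the labels, the authors aligned reads to GRCm39 with STAR and deposited raw counts per GENCODE gene; the STAR version, GENCODE release and strand setting were not given in the sources used here. Of 134 libraries with a group, 68 were cortex and 66 hippocampus; 1 further library with conflicting tissue labels and 3 table columns matching no mapped sample were not used. The 4 summary lines of each table (16.6% to 51.7% of reads) were kept out of library sizes.

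Counts were analysed with edgeR 4.0.16 (R 4.3.3): TMM scaling, filterByExpr (minimum count 10, minimum total 15), glmQLFit and glmQLFTest, Benjamini-Hochberg over all genes tested, called at an adjusted p under 0.05. Each tissue and genotype had a model of all its groups; genotype comparisons used all groups. DESeq2 1.42.0 was the alternative. CPM were scaled over all libraries jointly. Classes of reads outside genes were split at 9%, after the data were seen. On simulated counts the code was tested on known changes. The members, gene lists and tests were chosen with earlier results of these data known. In each comparison the called members, or the member with the largest change where none was called, are named, the others are given by range and counts, and up to 4 called genes are named per list. Correlations between tissues used 99999 permutations, two-sided. The same mouse number in both tissues marks the same animal, which is where the pairing comes from. Mice are taken as separate animals by their numbers. Alternatives covered scaling, filter, test, covariates, number series, single mice and doubtful libraries.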

Additional observations from a re-analysis of the deposited data

Results flagged for a closer look

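A single library far from the others of its group was found for 2 of 54 member, tissue and group combinations of 4 to 10 libraries (Dixon's test on log2 CPM, for which chance gives about 1 in 20). Ugt8a was at 16.66 CPM in the cortex of SS mouse 9824, with the other 7 SS libraries between 25.84 and 37.44 CPM. Mog was at 37.5 CPM in the cortex of SS + RSD mouse 9621, with the other 5 between 53.99 and 66.7 CPM. The cortex library of mouse 9621 also held 1340 CPM of summed striatal markers, the highest of its group, where the group median was 230.0 CPM. It lay at 34.9% of the way from cortex to hippocampus, against -1.85% to 9.46% in the other SS + RSD cortex libraries. The part of these in the Mog value was not tested.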

How the results depend on the processing

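Over the 22 tests of stress, drug, genotype and tissue, 352 of 364 combinations of test and alternative called 0 of 9 members, as reported. Leaving out in turn each mouse of AA + RSD, SS + RSD and SS + minocycline left the count at 0 in the comparisons where this was run; mice of the other groups were not left out singly, and the comparisons of SS with AA, of the genotypes under RSD + minocycline and of the tissues had no such fit. With unadjusted p-values, cortex gave 3 members for SS + RSD against SS, where 5508 of 19906 genes passed. Cortex also gave 1 for SS + RSD + minocycline against SS + RSD (5252 of 19906) and 2 for SS + minocycline against SS (1406 of 19906). It gave 3 for SS against AA (1643 of 22870) and 1 for the genotypes under RSD + minocycline (2035 of 22870). Hippocampus gave 3 for SS + RSD (4050 of 20701) and 1 for SS + minocycline (449 of 20701), each against SS. A fit of the SS and SS + RSD cortex libraries alone called 1 member, Cnp. Within series B cortex, 4 were called for SS + minocycline against SS and 1 for SS + RSD + minocycline against SS + minocycline. High-class libraries alone gave 1 for SS + minocycline against SS in cortex and 1 for hippocampus against cortex in AA. Number series B against A in cortex (3 called) gave 6 unadjusted, 0 with the share of reads outside genes as a term and 5 without mice 5844, 5853, 7078 and 9631; with the share term Cnp turned to 0.006041 and Mbp to 0.02389 on the log2 scale. In hippocampus (8 called) the share term gave 0. The cortex count of 6 between share classes became 1 within series B. The cause of these moves was not tested. The mouse as a block between tissues changed no call. The share classes, striatal libraries and their fits were chosen after seeing the data. AA + RSD with 2 libraries per tissue, and RSD without minocycline in series A only, limit what these comparisons show.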
